A study of Mus musculus with 7 samples.

Results

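Gene expression of B16 melanoma cells was compared at the labelled time of 91 h between cells that had met interferon gamma (IFNγ) for 5 h and cells that had met medium alone (mock). A gene belonged to the comparison if it was listed for both groups and reached a level of at least 20 normalised reads in either. Of the 13587 genes listed anywhere in the series, 12945 were listed for both groups and 12460 met that level. B16 is a melanoma that arose in C57Bl/6 mice. Both groups were made from the same stable clone of it, at a passage number under 5, so every value stands for 1 clone. Detached cells were exposed to 10 nM recombinant mouse IFNγ or to plain medium, washed 3 times, and put into a 96-well plate in duplicate with 35000 cells in each well. PolyA RNA was sequenced. A further group, labelled 0 h (T0), is the same line, and the labels say neither whether its cells had been through a pulse nor when the count of hours began.

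IFNγ, a cytokine of T cells and NK cells, binds a receptor that activates the kinases JAK1 and JAK2. Signalling then reaches GAS elements in promoters and induces transcription factors such as IRF1. IRF factors bind ISRE elements. Known targets in melanoma cells include the chains and peptide supply of MHC class I molecules, which show intracellular peptides to CD8+ T cells, the class II pathway, GTPases that attack vacuoles of intracellular pathogens, and PD-L1, which restrains T cells. A further set of genes matters below: those that HIF factors induce when oxygen is low, among them most enzymes of glycolysis.

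Although 1 sample is labelled in each group, nearly all means in the tables could be read as the average of whole read numbers from 2 libraries, and both numbers were solved for 12432 of the 12460 genes. The IFNγ libraries held 16010250 and 14379597 reads in the genes solved and the mock libraries 16409241 and 12894823. The solving gave the number 1 to the library with the larger size factor, the divisor for depth, which in each group also held more reads. Library numbers carry no other meaning. Separate cultures are not stated for them. The p-values below therefore reflect the spread of these libraries alone, and that spread may be technical. Between the libraries of a group, the log2 differences of genes with 1000 or more normalised reads had an SD of 0.0871 (IFNγ) and 0.0875 (mock). An 18S ribosomal RNA entry took 11.8% of the gene total with IFNγ and 14.2% with mock, and entries that name no gene took 66.5% and 70.3% of all listed reads; their part in the results was not tested. The label of melanoma cells was borne out by genes of the pigment lineage, with Tyrp1 at 217057 normalised reads with IFNγ and 226360.0 with mock and Pmel at 81029 and 74632. Of the markers of other cells, 1 of 14 for T and NK cells (Lck) and 1 of 13 myeloid were listed for both groups. So were 1 of 8 endothelial, 1 of 8 keratinocyte and 5 of 10 fibroblast markers. Lck, the myeloid and the endothelial marker and 2 of the fibroblast markers reached a level of 20, and the keratinocyte marker did not. Ptprc, Cd3e, Itgam and Adgre1 were listed in no table. In bulk RNA, more RNA per cell and more cells of a kind cannot be told apart.

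The ratio of a gene below is log2 of its IFNγ level plus 1 over its mock level plus 1. SE and adjusted p come from limma on log2(normalised reads + 1) of the 4 libraries, two-sided, with Benjamini-Hochberg adjustment over all 12432 genes. "Higher" and "lower" mean an adjusted p under 0.05, and "called" means in addition a 2-fold or larger difference of the means. Limma found 1088 genes higher (8.75%) and 936 lower (7.53%) with IFNγ. Far fewer were called, 70 higher (0.563%) and 22 lower (0.177%). The called higher genes had a median level of 202 normalised reads over both groups and 20 of them exceeded 1000; 43 of them belong to the gene lists described here. The called lower genes had a median of 39.1, and 19 of the 22 stood under 100. All 92 had libraries that did not overlap between the groups, as did 29.9% of all genes in the higher and 27.8% in the lower direction. Without the variance trend limma found only 71 genes higher and 36 lower, of which 41 and 7 were called.

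**Figure D1:**
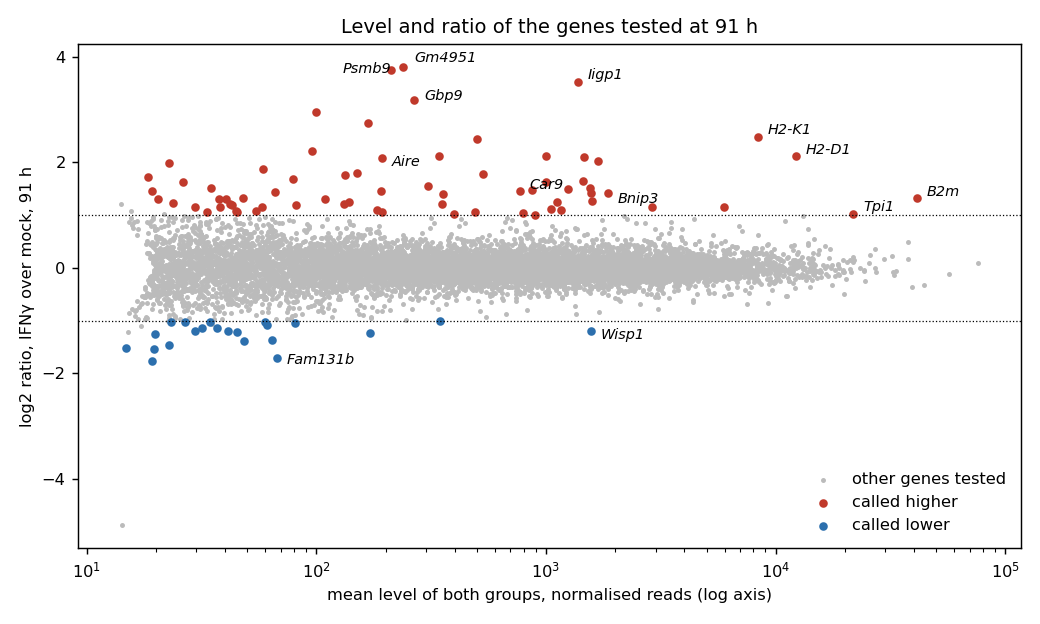
Each point is a gene tested at 91 h, with its mean level over both groups in normalised reads (log axis) and its log2 ratio of IFNγ over mock; red and blue points are the 70 called higher and 22 called lower genes, and dotted lines mark a 2-fold difference. Called higher genes reach from low levels to B2m and H2-D1 at the far right, while all called lower genes but Wisp1 lie at low or moderate levels; the grey point at -4.88 is Il17f, whose limma adjusted p = 0.17.

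The immunity-related GTPases (IRG), which are loaded onto vacuoles around pathogens and break them, were higher throughout. All 7 tested members were higher with IFNγ and 6 were called, with a median ratio of 1.49 against 0.00 over all genes tested. Iigp1 stood at 2610.45 and 2443 normalised reads in the IFNγ libraries and at 244 and 195 in the mock libraries (ratio 3.52, SE 0.09, limma adjusted p = 1.3e-12). Tgtp2 stood at 1652 and 1614 against 380.2 and 369 (2.12, SE 0.07, limma adjusted p = 9.1e-12). Igtp stood at 1894 and 1799 against 675 and 639 (1.49, SE 0.06, limma adjusted p = 2.8e-10). In none of the 7 did the libraries of the groups overlap, which also held for 29.9% of all genes in the higher direction. Gm4951, an IRG-type gene, had the highest ratio of all genes called (3.81, SE 0.16), from 472 and 423 against 28.4 and 33.7. Ifi47 followed at 1.48 and Irgm2 at 1.15, and Irgm1, a regulator of the other IRG proteins, stayed below 2-fold (0.70) at the highest level of the family, 8814 against 5422. The mock cells themselves were far above T0: Igtp was at 42.8 and Iigp1 at 13.3 in T0, and limma placed all 7 members above T0 in the IFNγ group and in the mock group alike, as it did 37.7% and 37.1% of all genes. Every comparison of either group with T0 uses the same T0 libraries. Tgtp2 and Tgtp1 are near-identical copies, and the annotated spans of Igtp and Irgm2 share 7974 bases on the same strand, so the split of reads between such genes is uncertain.

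The promoters of 3 of these genes are shown because they hold the binding motifs of both factor families next to each other. In RefSeq windows (GRCm38.p6) from 250 bases before to 50 after the gene start, the GAS letters TTCNNNGAA and the ISRE core GAAANNGAAA were searched on both strands. In Igtp (chr11:58199306-58199605, plus strand), Irgm2 (chr11:58214727-58215026, plus strand) and Tgtp2 (chr11:49064163-49064462, minus strand) the ISRE core began 11 bases after the start of the GAS, so that both lie within 21 bases. Capitals mark the searched letters in these stretches.
Igtp: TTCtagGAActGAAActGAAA
Irgm2: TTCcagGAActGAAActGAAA
Tgtp2: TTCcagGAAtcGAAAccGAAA
The stretches of Igtp and Irgm2 differ at 1 base, those of Igtp and Tgtp2 at 4 and those of Irgm2 and Tgtp2 at 3. They start 45, 75 and 81 bases before the gene start in turn. Among the 9274 tested genes with a window, these 3 were the only ones with the combined letters (0.0323%), an arrangement looked for after it had been seen in them. The whole windows of Igtp and Tgtp2, from the gene strand, show the same run in its context, with the GAS and the ISRE core in capitals.
Igtp: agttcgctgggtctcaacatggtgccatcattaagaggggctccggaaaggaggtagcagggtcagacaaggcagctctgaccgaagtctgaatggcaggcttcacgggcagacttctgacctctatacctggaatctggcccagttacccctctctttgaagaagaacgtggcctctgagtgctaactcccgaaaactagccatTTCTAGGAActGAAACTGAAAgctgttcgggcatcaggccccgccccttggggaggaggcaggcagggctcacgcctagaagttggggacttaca
Tgtp2: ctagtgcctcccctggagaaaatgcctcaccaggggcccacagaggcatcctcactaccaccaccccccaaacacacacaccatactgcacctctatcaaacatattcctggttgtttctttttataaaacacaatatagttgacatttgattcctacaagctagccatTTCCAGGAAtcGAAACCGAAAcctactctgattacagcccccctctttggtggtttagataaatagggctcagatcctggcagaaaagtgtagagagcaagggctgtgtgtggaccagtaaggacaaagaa
A match of letters is a description and not a measured binding site.

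The guanylate-binding proteins (GBP), larger GTPases that coat the same vacuoles, showed the same direction. All 5 tested members were higher and 3 were called (median 1.11). Gbp9 stood at 529 and 434 normalised reads against 44.8 and 60.4 (3.17, SE 0.16, limma adjusted p = 3.7e-09), and it was at 0.455 in T0. Gbp6 stood at 554 and 563 against 118 and 138 (2.12, SE 0.11, limma adjusted p = 5.6e-09). Gbp2, at 1471 and 1397 against 687 and 643, was just past 2-fold (1.11), and Gbp7 (0.99) and Gbp3 (0.74) were below it. The libraries of the groups did not overlap in any of the 5, against 29.9% of all genes in the higher direction.

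Genes of MHC class I presentation were higher at high levels. The list of class I chains and their transactivator held 10 tested genes, of which 8 were higher and all 8 called (median 1.71). One member, H2-Ke6, is named for its place in the MHC region and encodes a hydroxysteroid dehydrogenase, not a chain. H2-K1, a classical heavy chain, stood at 14944 and 13432 normalised reads against 2607 and 2493 (2.48, SE 0.05, limma adjusted p = 2.3e-13). H2-D1, the other classical heavy chain, stood at 21186 and 18722 against 4690.5 and 4560 (2.11, SE 0.06, limma adjusted p = 1.3e-12). B2m, the light chain shared by all of them, stood at 59971 and 57528 against 23787 and 23505 (1.31, SE 0.05, limma adjusted p = 1.1e-10). Nlrc5, which activates class I promoters, stood at 829 and 863 against 162 and 149 (2.44, SE 0.09, limma adjusted p = 1.1e-10). In each of these 4 the IFNγ libraries lay far above the mock libraries, and the mock libraries above T0 (1007, 1200, 3815 and 22.02). The non-classical genes H2-Q4 (1.80), H2-T23 (1.77), H2-T22 (1.65) and H2-M3 (1.24) were called as well. H2-Ke6 (0.11) and H2-T24 (-0.52, limma adjusted p = 0.27) did not pass, and several class I genes are alike enough that the assignment of reads among them is uncertain.

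Within the machinery that cuts and loads peptides, the ratios ran from the immunoproteasome subunits down to chaperones that did not pass. Of 13 tested genes 9 were higher and 4 called (median 0.42). Psmb9 stood at 437 and 349 normalised reads against 22.9 and 33.7 (3.75, SE 0.20, limma adjusted p = 4.7e-09), and Psmb8 at 301 and 284 against 39.3 and 46.4 (2.74, SE 0.16, limma adjusted p = 1.7e-08). The third immunoproteasome subunit, Psmb10, stood at 343 and 322 against 282 and 256 (0.31, limma adjusted p = 0.057). The subunits thus differed in size of ratio, and Psmb10 also stood apart in T0, at 301 against 8.92 for Psmb9 and 5.01 for Psmb8. The peptide transporter genes Tap1 (1.41) and Tap2 (1.01) were called. Erap1, which trims peptides (0.52), Tapbpl (0.48), the proteasome activator Psme1 (0.42), Tapbp (0.24) and Pdia3 (0.15) were higher below 2-fold, and Psme2 (0.25), Calr (0.11) and Canx (-0.01) did not pass. The 32 constitutive proteasome genes gave 0 higher and 1 lower, Psme3 at -0.19, with a median of -0.04. The Psmb8 window (chr17:34197945-34198244, plus strand) is shown for its GAS, in capitals, 97 bases before the start.
Psmb8: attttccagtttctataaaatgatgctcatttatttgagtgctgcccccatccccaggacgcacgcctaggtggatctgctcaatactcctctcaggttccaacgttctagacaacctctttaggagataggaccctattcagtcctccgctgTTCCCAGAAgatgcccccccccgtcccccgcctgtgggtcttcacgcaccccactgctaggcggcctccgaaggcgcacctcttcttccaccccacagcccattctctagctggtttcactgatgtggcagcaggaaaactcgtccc
Psmb9 and Tap1 are read in opposite directions from neighbouring starts. Their windows share 275 bases and held neither motif.

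**Figure D2:**
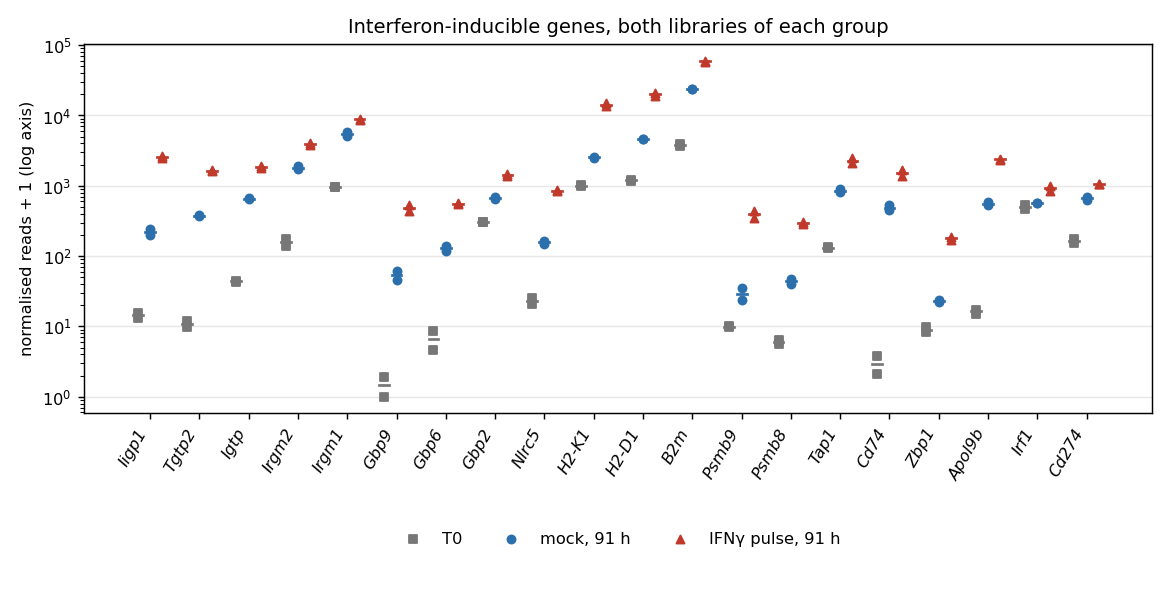
Normalised reads plus 1 (log axis) of both recovered libraries of T0 (grey squares), mock at 91 h (blue circles) and IFNγ pulse at 91 h (red triangles) for 20 interferon-inducible genes; horizontal lines are the group means. In each gene the red points lie above the blue ones, and for all but Irf1 the blue points lie well above the grey ones.

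Class II presentation differed at its invariant chain and its peptide exchange factor. Of 6 tested genes 2 were higher, both called. Cd74, the invariant chain, stood at 1652 and 1383 normalised reads against 452 and 524 (1.63, SE 0.09, limma adjusted p = 7.2e-09), from 1.91 in T0. H2-DMb1 stood at 222 and 190.5 against 68.8 and 52.0 (1.75, SE 0.18, limma adjusted p = 6.2e-06). The promoter factors Rfx5 (0.04), Rfxank (0.19) and Rfxap (0.10) and the thiol reductase Ifi30 (-0.02) did not pass. Of the class II chains, 2 were listed for IFNγ alone: H2-Aa at 69.5 and 46.7, and H2-Eb1 at 43.0 and 20.9, with 1.55 and 0 in T0. H2-DMa was likewise listed for IFNγ alone, at 38.6 and 22.1, with 9.10 in T0. The class II transactivator gene Ciita was not listed for either group at this time.

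The genes listed for a single group had no value in the other and no test. There were 128 listed only for IFNγ, of which 52 reached a level of 20, and 71 listed only for mock, of which 27 did. The highest of the first kind was Gbp4, at 287 and 222 normalised reads, followed by Tgtp1 (276 and 230), H2-T10 (117 and 98.3) and F830016B08Rik (91.5 and 79.9). The other genes among the highest 10, beside H2-Aa and H2-Eb1, were 9330175E14Rik (52.9 and 71.3), 9930111J21Rik1 (43.0 and 47.9), Gm12185 (47.4 and 43.0) and Gbp5 (47.4 and 25.8). Gbp4 and Tgtp1 stood at 1.00 and 1.09 in T0. The highest of the second kind stood much lower: Hectd2 at 33.9 and 32.3, the ephrin receptor gene Epha4 at 28.4 and 33.7 and the transcription factor gene Mycl at 27.3 and 29.5. Wdr66, Gpr179, Ldb3, C530005A16Rik, Itgb8, Cygb and Pcdhb3 followed, with means from 26.5 down to 22.6.

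Antiviral genes that both types of interferon induce were higher in most members, at small folds. Of 49 tested members 32 were higher, 0 lower and 4 called, and the median ratio was 0.33; the ratio was above 0 in all 49. Apol9b stood at 2424 and 2341 normalised reads against 581 and 524 (2.11, SE 0.07, limma adjusted p = 7.6e-12) and its near copy Apol9a at 2705 and 2680.3 against 673 and 657 (2.02, SE 0.06, limma adjusted p = 2.1e-12). Oasl2 stood at 2350.2 and 2243 against 812 and 792 (1.52, SE 0.06, limma adjusted p = 1.1e-10). Sp110 (1.32) was called at a low level. In the first 3 the groups were far apart, whereas well-known members of high level were close: Ifit3 stood at 10606 and 10875 against 8230.4 and 7400.3 (0.46), and Ifitm3 at 12059 and 11789 against 10715 and 10357 (0.18). Mock and IFNγ cells had both left T0 behind here, with list medians of 2.44 and 2.99 over T0.

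Sensors of foreign nucleic acid and bacterial products were mixed. Of 17 tested, 10 were higher (4 called) and 2 lower. Zbp1, a sensor of Z-form nucleic acid that can start necroptosis, stood at 185 and 170 normalised reads against 22.9 and 21.1 (2.96, SE 0.20, limma adjusted p = 1.2e-07). Nod1, a sensor of bacterial cell wall fragments, stood at 299.98 and 259 against 96.1 and 105 (1.46, SE 0.14, limma adjusted p = 2.9e-06), with the mock libraries near the 120.05 of T0. Tlr1, a subunit of the lipoprotein receptor, stood at 32.0 and 41.8 against 8.74 and 8.43 (1.98, SE 0.36, limma adjusted p = 0.0014). Its partner Tlr2 went the other way, at 37.5 and 36.9 against 57.9 and 71.6 (-0.78, limma adjusted p = 0.031). The libraries did not overlap in any of the 4, but those of Tlr1 and Tlr2 rest on few reads. Among all genes 29.9% did not overlap in the higher and 27.8% in the lower direction. Mndal (1.06) was called, and Ifih1 (0.44), Dhx58 (0.26) and Ddx58 (0.20), sensors of viral RNA, were higher below 2-fold.

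The receptor and its negative feedback differed little at the transcript level. Of 17 tested genes, Usp18, which limits type I interferon signalling (0.38, limma adjusted p = 1e-04), and the kinase gene Tyk2 (0.22, limma adjusted p = 0.026) were higher, and 0 were lower. Ifngr1 stood at 566 and 531 normalised reads against 508 and 562 (0.04, limma adjusted p = 0.81), so the groups overlapped. Ifngr2 (0.12), Jak1 (0.10), Jak2 (0.08) and Socs1, the inhibitor of the JAK kinases (0.19, limma adjusted p = 0.68), did not pass. Downstream, 8 of 14 STAT and IRF genes were higher and 1 called (median 0.31). Irf1 stood at 984 and 855 against 564 and 570.3 (0.70, SE 0.08, limma adjusted p = 2.2e-05), with mock near the T0 level of 499.5. Batf2 was called at low level, 57.3 and 46.7 against 18.6 and 16.9 (1.502). Irf7 (0.60), Stat2 (0.50), Stat5a (0.40), Stat3 (0.35) and Stat6 (0.26) were higher too. The GAS of the Irf1 window (chr11:53769764-53770063, plus strand) is shown in capitals, 90 bases before the start.
Irf1: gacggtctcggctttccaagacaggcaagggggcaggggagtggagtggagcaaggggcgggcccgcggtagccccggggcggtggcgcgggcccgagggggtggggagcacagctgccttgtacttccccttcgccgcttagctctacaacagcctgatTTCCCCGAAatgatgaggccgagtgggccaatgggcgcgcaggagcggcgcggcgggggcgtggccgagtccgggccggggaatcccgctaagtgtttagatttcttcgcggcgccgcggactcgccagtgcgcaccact

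Genes by which tumour cells meet lymphocytes did not move together. Of 9 tested immune evasion genes 3 were higher and 1 lower. Cd274, which encodes PD-L1, stood at 1074 and 1073 normalised reads against 625 and 702 (0.69, SE 0.07, limma adjusted p = 9.1e-06), above the 162.5 of T0 in all 4 libraries. Serpinb9, an inhibitor of granzyme B, stood at 400.3 and 383 against 229 and 235 (0.75, SE 0.10, limma adjusted p = 9.6e-05), and Lgals9 was higher by 0.21. Pvrl2, which encodes nectin-2, a ligand of receptors on T and NK cells, was lower, at 1593 and 1615 against 2339 and 2411 (-0.57, SE 0.05, limma adjusted p = 2.7e-06). Of 9 chemokine and cytokine genes 0 were higher and 2 lower: Cxcl10, which draws T cells, at 2605 and 2518 against 3354 and 2958 (-0.30, limma adjusted p = 0.0026), and Lif at 136 and 128 against 211 and 257 (-0.82, limma adjusted p = 7.1e-04). Of 6 complement genes C4b (0.90), C2 (0.65) and C1rl (0.42) were higher. Cell death genes gave 5 higher and 4 lower of 21, with the pyroptosis effector Gsdmd (0.92), Casp12 (0.82) and the necroptosis effector Mlkl (0.31) on one side and the survival gene Bcl2 (-0.35) and Casp4 (-0.40) on the other.

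A second large group, genes of hypoxia and glycolysis, was mostly higher in IFNγ cells. In the mock group 16 of 18 tested glycolysis genes were below T0 and 1 above. Of the hypoxia genes 11 of 23 were below and 8 above, not far from the shares over all genes. Those were 36.8% below and 37.1% above. Of 23 hypoxia genes 16 were higher (6 called) and 2 lower (1 called), with a median ratio of 0.40. Of 18 tested glycolysis genes 15 were higher (4 called) and 2 lower, with a median of 0.74 over the 20 listed. Bnip3, a mitophagy gene, stood at 2714 and 2695 normalised reads with IFNγ, 817 and 1200 with mock and 2012 in T0 (1.42, SE 0.11, limma adjusted p = 5.6e-07). Car9, a carbonic anhydrase and a textbook HIF target, stood at 1178 and 1073 against 334 and 490.3, and 534 in T0 (1.45, SE 0.13, limma adjusted p = 1.2e-06). In both genes the mock libraries lay below T0 and the IFNγ libraries above it. Ankrd37 (1.68), the vasodilator peptide gene Adm (1.31), Stc1 (1.31) and Selenbp1 (1.199) were also called, the first of these with libraries as far apart as 89.3 and 152. Egln1, an oxygen sensor that marks HIF for degradation, was higher by 0.85, Vegfa by 0.24. Car12, another carbonic anhydrase, was called lower at 72.8 and 32.0 against 111 and 108 (-1.05).

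Along glycolysis the difference ran from glucose entry to lactate exit. The glucose transporter gene Slc2a1 was higher by 0.91 and the hexokinase gene Hk2 by 0.63. Gpi1 (0.89), Pfkl (1.16), Aldoc (0.95), Tpi1 (1.02), Gapdh (0.79), Pgk1 (0.74), Pgam1 (0.71) and Eno1 (0.73), which encode successive enzymes, all passed limma, as did Ldha (0.99), which makes lactate. Pdk1, which keeps pyruvate out of the mitochondria, stood at 2306 and 2183 normalised reads against 759 and 1104 and at 2104 in T0 (1.27, SE 0.11, limma adjusted p = 1.8e-06). The lactate exporter gene Slc16a3 stood at 1521 and 1607 against 559 and 761 and at 1922 in T0 (1.24, SE 0.10, limma adjusted p = 7.4e-07). Tpi1, at a much higher level, stood at 30607 and 27817 against 13137 and 15655 and at 30921 in T0. In these 3 genes the IFNγ libraries were nearer to T0 than the mock libraries, which lay lower. The isoform gene Eno2 (-0.53) and the transporter gene Slc2a3 (-0.36) were lower. Against T0, the median log2 ratio of the glycolysis genes was -0.12 with IFNγ and -0.83 with mock, and that of the hypoxia genes 0.35 and -0.37.

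The mock libraries were not alike in these genes, nor in some other lists. Mock library 1, the one with more reads, was below mock library 2 in 17 of 18 tested glycolysis genes and in 18 of 23 hypoxia genes. IFNγ library 1 was below library 2 in 5 and 9. Mock library 1 was also below library 2 in 20 of 24 immediate early genes and 14 of 20 p53 targets. It was below in only 6 of 25 sterol and 8 of 28 S phase genes. The share over all genes was not counted. Summed over the 23 hypoxia genes, the mock libraries held 40606 and 45458 normalised reads and the IFNγ libraries 55637 and 56973, so the sums did not overlap. Without the variance trend limma passed 1 of the hypoxia genes and 2 of the glycolysis genes as higher. Gapdh and Pgk1, often used as reference genes, are members here and also belong to the control list. Of the 14 tested control genes 4 were higher, Gapdh, Pgk1 and the transferrin receptor gene Tfrc (0.42) among them. The control count is thus not independent of the glycolysis list. Among the control genes 2 were lower, Ppia (-0.39) among them, and the median was 0.05. Cell density and oxygen in the wells at 91 h are not given in the labels, and their part was not tested.

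The promoters of Car9 (chr4:43506776-43507075, plus strand) and Bnip3 (chr7:138909457-138909756, minus strand) are shown because they hold the core letters of HIF binding, ACGTG, searched on both strands and in capitals. In Car9 the core begins 18 bases before the start. In Bnip3 it occurs on both strands in the same 6 letters, from 108 bases before the start.
Car9: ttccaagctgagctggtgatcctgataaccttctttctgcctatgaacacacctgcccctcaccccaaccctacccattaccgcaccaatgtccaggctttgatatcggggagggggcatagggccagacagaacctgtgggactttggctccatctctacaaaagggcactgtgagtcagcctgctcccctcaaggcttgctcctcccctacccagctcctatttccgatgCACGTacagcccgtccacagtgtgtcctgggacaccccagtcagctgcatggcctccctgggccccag
Bnip3: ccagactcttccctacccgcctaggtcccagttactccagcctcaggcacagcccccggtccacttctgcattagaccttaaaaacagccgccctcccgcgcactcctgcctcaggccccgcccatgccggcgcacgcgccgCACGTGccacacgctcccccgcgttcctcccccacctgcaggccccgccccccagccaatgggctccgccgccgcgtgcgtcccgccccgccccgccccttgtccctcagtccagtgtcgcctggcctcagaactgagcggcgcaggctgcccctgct
These letters are short and common: they occur in 30.3% of the tested genes with a window, in 5 of 9 called hypoxia and glycolysis genes with a window and in 7 of 16 called lower genes. The GAS occurs in 8.13% of the tested genes with a window and the ISRE core in 3.60%. Of 20 called higher genes with a window from the interferon and antigen presentation lists, 5 held a GAS and 9 an ISRE core. Windows were found for 52 of the 70 called higher genes, 20 of 27 from those lists and 16 of the 22 called lower genes, under 80% of each, so a comparison of shares is void and the counts stand as a description.

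**Figure D3:**
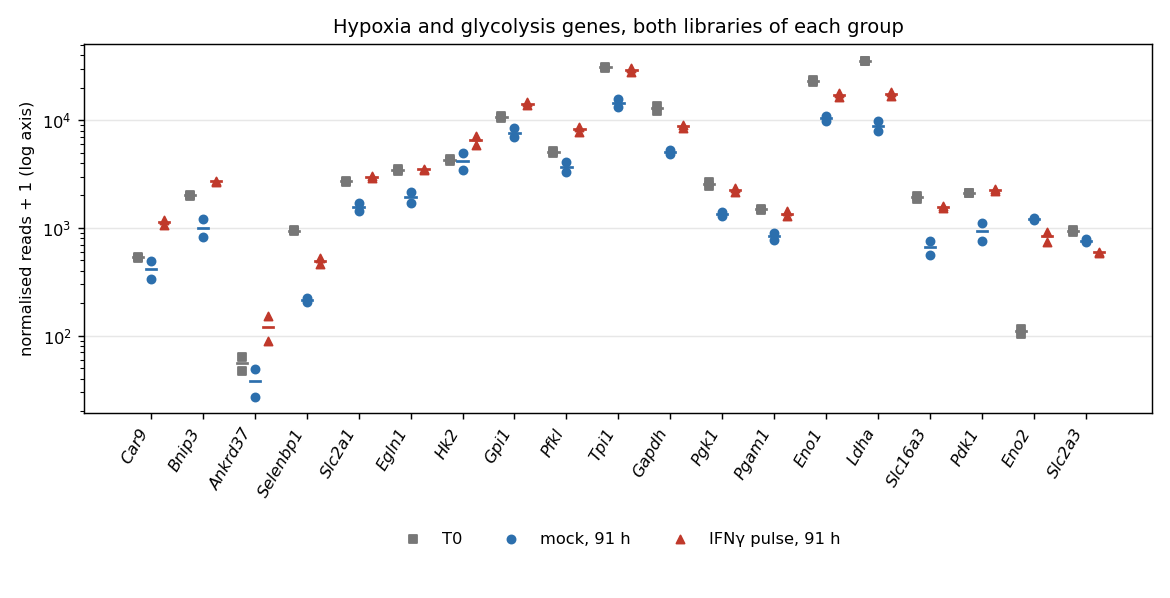
Normalised reads plus 1 (log axis) of both recovered libraries of T0 (grey squares), mock at 91 h (blue circles) and IFNγ pulse at 91 h (red triangles) for 19 genes of the hypoxia and glycolysis lists; horizontal lines are the group means. Red points lie above blue ones except for Eno2 and Slc2a3, and for Pdk1 and Tpi1 the red points are at the level of the grey ones.

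The 2 groups of genes had different histories, by a limma interaction over the 8 libraries of 23.5 h and 91 h, which asks whether the ratio differs between those times. Of 12046 genes tested, the effect was higher at 91 h in 514 (4.27%) and lower in 685 (5.69%). It had fallen in 5 of 5 IRG, 3 of 3 GBP, 8 of 10 class I chain and 44 of 48 antiviral genes that could be tested. Igtp went from a ratio of 6.71 at 23.5 h to 1.49 (difference -5.22, SE 0.09, limma adjusted p = 8.9e-14) and H2-K1 from 3.89 to 2.48 (-1.41, SE 0.16, limma adjusted p = 3.9e-05). For H2-K1 the IFNγ level was not lower at 91 h (14188) than at 23.5 h (12353), while the mock level had gone from 833 to 2550.2. For Igtp the IFNγ level had gone from 6304 to 1846 and the mock level from 59.2 to 657.

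By contrast the effect had risen in 12 of 23 hypoxia genes and fallen in 2, and risen in 12 of 17 glycolysis genes and fallen in 1. Car9 went from -0.23 at 23.5 h to 1.45 (difference 1.68, SE 0.25, limma adjusted p = 5.7e-04), Bnip3 from -0.04 to 1.42 and Tpi1 from 0.02 to 1.02 (1.00, SE 0.11, limma adjusted p = 2.5e-05). Of the 92 genes called at 91 h, 68 could be tested. The effect was higher than at 23.5 h in 23, all of them called higher, and lower in 26, of which 7 were called lower. These genes were selected by their 91 h ratio, which is part of the tested difference, so these counts and their match in sign are partly built in. Genes with no mock value at 23.5 h, such as Psmb8, Gbp9, Zbp1 and Cd74, could not be tested. At 48 h, where the IFNγ libraries lay far apart, Car9 stood at 2152 and 1954 with IFNγ and 2173 and 1805.5 with mock. Those groups overlapped and both exceeded every value of 91 h. Across the lists, however, the median ratio at 48 h was 0.29 over 23 hypoxia genes and 0.39 over 20 glycolysis genes. Over all genes it was -0.01.

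**Figure D4:**
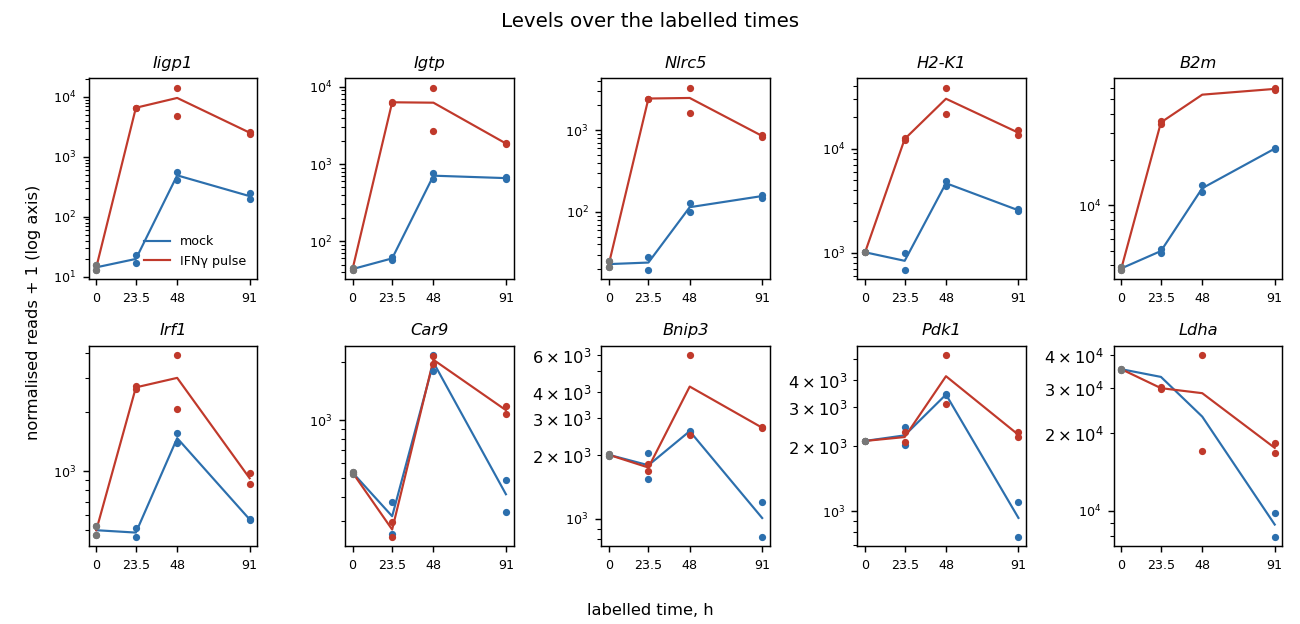
Normalised reads plus 1 (log axis) against the labelled time in hours for 10 genes in the IFNγ (red) and mock (blue) groups; points are recovered libraries, lines join group means and grey points are T0. In Iigp1, Igtp, Nlrc5, H2-K1, B2m and Irf1 the curves are widest apart at 23.5 h or 48 h, and in Car9, Bnip3, Pdk1 and Ldha the mock curve drops below the IFNγ curve by 91 h.

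Genes of the integrated stress response, which ATF4 drives when amino acids are short or proteins misfold, were mostly lower with IFNγ. Of 23 tested, 15 were lower (1 called) and 1 higher, with a median ratio of -0.27. Atf3, a stress transcription factor, stood at 1005 in both IFNγ libraries against 1694 and 1631 normalised reads (-0.73, SE 0.06, limma adjusted p = 5.7e-07). Ppp1r15a, which restores translation after stress, stood at 3482 and 3337 against 5197 and 5470.15 (-0.65, SE 0.05, limma adjusted p = 3.8e-07), and the cystine transporter gene Slc7a11 at 2070.05 and 2466 against 3879.8 and 3888 (-0.78, SE 0.07, limma adjusted p = 1.2e-06). The groups did not overlap in these genes, as in 27.8% of all genes in the lower direction. All were far above T0, where they stood at 108, 279 and 342. The hormone gene Fgf21 (-1.03) was called at low level, 18.7 and 25.8 against 52.4 and 40.7, and Vegfa, which also belongs to the hypoxia list, was the member that was higher. Of 20 endoplasmic reticulum chaperone genes 3 were lower and 2 higher, against 7.53% and 8.75% of all genes. The stress sensor gene Ern1 (-0.41) and Hspa5 (-0.36) were among the lower, and Pdia4 (0.27) and Dnajc3 (0.22) were the higher ones.

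Of the p53 targets and S phase genes a part was lower, whereas the share of G2/M genes that were lower was near that of all genes (7.53%). The ratio itself was below 0 in 27 of 30 G2/M genes, 22 of 28 S phase genes and 19 of 20 p53 targets. Over all genes it was below 0 in 6099 of 12460. Of 20 p53 targets 12 were lower and 0 higher (median -0.25). Gadd45a stood at 1626 and 1647 normalised reads against 2577 and 2516 (-0.64, SE 0.05, limma adjusted p = 6.8e-07), and Mdm2, the p53 inhibitor, was lower too (-0.35), as were Eda2r (-0.56), the kinase gene Plk3 (-0.53) and the antiproliferative gene Btg2 (-0.50). S phase genes gave 10 lower of 28 (median -0.32), with Tk1 (-0.90), Mcm5 (-0.87), Uhrf1 (-0.65) and Mcm7 (-0.49) in front, and G2/M genes 2 lower of 30 (median -0.25), Birc5 (-0.79) and Mki67. Mki67, a marker of cycling cells, stood at 181 and 186 against 268 and 323 (-0.69, SE 0.12, limma adjusted p = 0.0012), while T0 stood at 13349. That gap to T0 was common to both groups: all 30 G2/M and all 28 S phase genes were below T0 by limma in IFNγ and in mock cells, as were 37% and 36.8% of all genes. Of 24 immediate early genes 7 were lower, Egr1 (-0.43) among them. Another 2 were higher, Ier3 (0.44) among them, near the share of 8.75% over all genes. Mock library 1 was below mock library 2 in 20 of the 24.

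Pigment and lysosome genes shifted upwards by small amounts. Of 14 tested pigment genes 11 were higher and 0 lower (median 0.21 over the 18 listed). Tyr, which encodes the first enzyme of melanin synthesis, stood at 30654 and 29932 normalised reads against 23822 and 23322 (0.36, SE 0.05, limma adjusted p = 1e-04), and Mitf, the master regulator of the lineage, at 11519 and 10467 against 8178 and 9099 (0.35, SE 0.06, limma adjusted p = 7.4e-04). Oca2 (0.56), Trpm1 (0.43) and Mc1r (0.42) led the list. Of 24 tested lysosome genes 13 were higher and 0 lower (median 0.17), with the cathepsin genes Ctsb (0.41) and Ctsa (0.34) and the regulator Tfeb (0.37) among them. In Tyr, Mitf and Ctsb the groups did not overlap, as in 29.9% of all genes in the higher direction. None of these genes was called.

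The remaining lists moved little. Of 25 sterol genes 3 were higher, the desaturase genes Scd2 (0.49) and Scd1 (0.24) and the regulator gene Srebf1 (0.25). Of 20 genes of phosphatidylserine exposure the scramblase family members Plscr4 (0.53) and Plscr1 (0.21) were higher. Of 35 tested ribosomal protein genes 5 were lower (median -0.12), Rpl10a (-0.39), Rpl18 (-0.20) and Rps2 (-0.19) among them. NF-κB targets gave 2 higher of 12, the inhibitors Tnfaip3 (0.90) and Tnip1 (0.27), and 2 lower, the subunit genes Relb (-0.42) and Nfkb2 (-0.38). Dedifferentiation genes gave 2 higher of 9, Loxl2 (0.54) and Vim (0.24), and 2 lower, Fn1 (-0.42) and Axl (-0.27). Histone genes gave 2 higher of 12, Hist1h2bc (0.84) and Hist1h1c (0.45), and 1 lower, Hist1h1e (-0.75). Of markers of other cells the macrophage gene Cd68 was called higher, at 107 and 87.3 normalised reads against 44.8 and 25.3 (1.44, SE 0.26, limma adjusted p = 9.9e-04), and the collagen gene Col1a1 was lower, at 22.1 and 25.8 against 44.8 and 50.6 (-0.97, limma adjusted p = 0.023). No other myeloid marker of the list was listed for both groups, and the part of other cells was not tested.

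**Figure D5:**
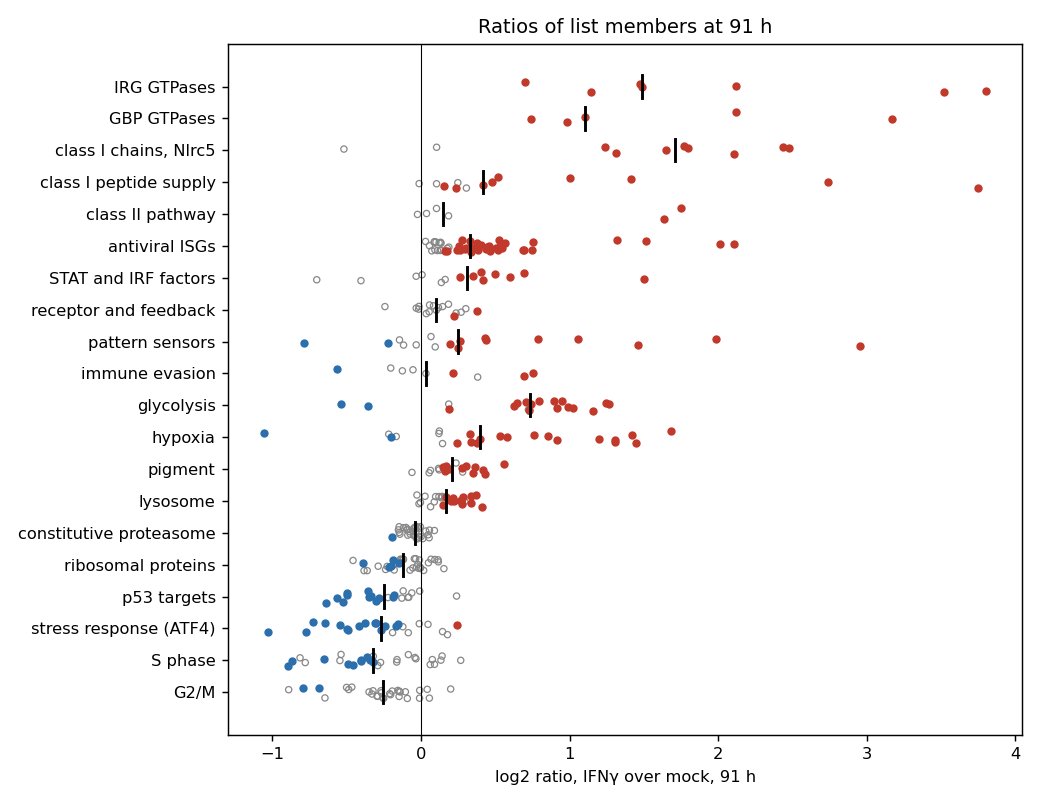
Log2 ratio of IFNγ over mock at 91 h for every member with a level of at least 20 in 20 gene lists; red points were higher and blue points lower by limma, open points did not pass or were not tested, and black bars are list medians. The IRG, GBP and class I chain lists lie furthest to the right, with medians of 1.49, 1.11 and 1.71, and the constitutive proteasome is centred on -0.04.

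Among the called higher genes outside the lists, 27 of 70, the highest ratios belonged to 9930111J21Rik2 (2.20) and Aire. Aire, a transcriptional regulator known for driving the expression of tissue-restricted antigens in the thymus, stood at 269 and 358 normalised reads against 38.2 and 108 (2.08, SE 0.31, limma adjusted p = 1.5e-04). The mock libraries lay far from each other, and below the T0 level of 257, to which the IFNγ libraries were close. In the authors' deposited tables the log2 of T0 over IFNγ was -0.29 for Aire (DESeq adjusted p = 0.221) and that of T0 over mock 1.81 (DESeq adjusted p = 1.28e-06). Fhad1 stood at 95.9 and 88.5 against 19.7 and 29.5 (1.87, SE 0.25, limma adjusted p = 9.7e-05). Cited1, a transcriptional coregulator, stood at 1639 and 1544 against 705 and 781 (1.098, SE 0.07, limma adjusted p = 3.1e-08), and Azgp1, a secreted lipid-mobilising protein with a class I fold, at 554 and 479 against 186 and 204 (1.40, SE 0.11, limma adjusted p = 3.8e-07). Of the 70 genes, 6 are not annotated as protein coding, such as Gm16439 (1.54) and the pseudogene Gm8995 (1.05). Reads of a pseudogene may come from a parent gene.

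Of the 22 called lower genes, Wisp1 was the only one above 1000 normalised reads. Wisp1, a matricellular target of WNT signalling, stood at 894 and 1009 against 2070.4 and 2316 (-1.204, SE 0.07, limma adjusted p = 1.7e-08), so that both groups exceeded the 716 of T0. Fam131b stood at 30.9 and 30.7 against 102 and 105 (-1.72, SE 0.21, limma adjusted p = 4.6e-05) and the kinase gene Nrk at 7.72 and 8.60 against 29.5 and 30.9 (-1.77, SE 0.37, limma adjusted p = 0.0042). Steap1 stood at 213 and 246 against 428 and 496 (-1.01, SE 0.11, limma adjusted p = 1.6e-05), and the kinase gene Prkg2 at 77.2 and 125 against 217 and 265.5 (-1.25, SE 0.19, limma adjusted p = 2.8e-04). None of these 5 had overlapping libraries, nor had any other called gene, against 27.8% of all genes without overlap in the lower direction. Arhgef28 (-1.37), the sorting receptor gene Sorcs2 (-1.40), Sgms2 (-1.54), Cpz (-1.52), Kcnh2 (-1.22), Soat2 (-1.1996), Gm38253 (-1.47), Arhgef16 (-1.26), Ccdc37 (-1.199), Lpar4 (-1.15), Nrtn (-1.13) and Gata3 (-1.03) were further members, all with a mean level under 100.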

How the data were processed

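DESeq (no version named), HTSeq 0.5.3, Picard 1.124, STAR 2.5.0a and the builds mm10 and GRCm38 are named in the submitters' processing notes, with no role or order. The sources used here do not name the annotation, strand setting or listing filter. A deposited table sets T0 against 1 group. Its columns, per the file headers, are the mean signal of a gene in either group (reads divided by a size factor, from the values), the log2 of T0 over that group and DESeq p-values.

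The reads of 2 libraries were solved from the 10 printed digits of each mean, within 1.2 times the rounding error, and above a level of 3000 only solutions with libraries at most 2 log2 units apart were allowed. A unique solution was found for 156463 (99.6%) of 157036 values; the T0 reads of 13308 of 13308 genes were the same in every table. The 28 genes without a single solution at 91 h were not tested. On simulated 91 h means 12426 and 12431 of 12432 values per group were solved, 0 wrongly. Groups were put on 1 scale by the median ratio of the T0 means. Entries naming no gene (4 per table, 66.5% and 70.3% of listed reads at 91 h) were left out; 0 value columns were unused.

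limma 3.58.1 (R 4.3.3) was fitted with a variance trend. On simulated data for IFNγ against mock at 91 h (12350 genes fitted) it recovered 75% of 1.5-fold, 92.3% of 2-fold and 100% of 4-fold changes. There, 1.11% of passing genes were unchanged. The simulation gave all genes the same added spread between libraries beside counting noise, so spread depended on level alone, as the variance trend assumes. It cannot show how the fit does where genes of like level differ in spread, so these shares may not hold for the real data. Python 3.11.15, numpy 2.4.6, pandas 2.3.3 and scipy 1.17.1 were used, and matplotlib 3.10.9 for plots. The comparison and the gene lists were chosen with earlier results of these data known. By rule the text names the 15 called genes of highest and of lowest ratio, up to 4 passing members per list by size of ratio, the 8 called genes of highest level, the 10 of highest level listed for a single group, the 10 with the largest rise or drop of effect, and a fixed set around Irf1 and Nlrc5; 3 of these genes are not reported here. Other named genes were chosen after their values were seen. Alternatives varied pseudocount, level filter, scale, variance model, libraries and promoter window.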

Additional observations from a re-analysis of the deposited data

Results flagged for a closer look

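These results differed between times: the IFNγ effect at 91 h minus that at 23.5 h passed a limma interaction test over 8 libraries, with Benjamini-Hochberg adjustment. The effect was higher at 91 h in 514 genes and lower in 685 of 12046. Among genes called at 91 h, the largest rises of the log2 ratio were 2.21 for Aire, 2.17 for Ankrd37, 2.00 for Tlr1, 1.78 for Fhad1, 1.68 for Car9, 1.66 for Adm, 1.54 for Gm16439, 1.53 for Kbtbd11, 1.48 for Smtnl2 and 1.46 for Bnip3. The ratio of each of these 10 lay between -0.49 and 0.09 at 23.5 h. Selection by the 91 h ratio, which enters the difference, favours rises among genes called higher. The largest drops were -5.22 for Igtp, -4.86 for Iigp1, -4.68 for Apol9a, -4.22 for Nlrc5, -4.08 for Apol9b, -3.89 for Irgm2, -3.74 for Gbp2, -3.69 for Ifi47, -3.43 for Oasl2 and -3.32 for Tap1.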

How the results depend on the processing

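No named gene changed direction under any alternative run. Without the variance trend the counts were 71 higher, 36 lower, 41 called higher and 7 called lower, with 4 peptide supply, 4 antiviral, 1 hypoxia and 2 glycolysis genes higher, and 144 higher and 270 lower for the difference between times. In a fit over all 14 libraries, which takes in the far-apart IFNγ libraries of 48 h and needs a gene to be listed in every table, they were 92, 67, 29 and 5, with 2 IRG, 0 GBP, 1 peptide supply, 0 class II, 9 antiviral, 5 hypoxia and 4 glycolysis genes higher. A level filter of 100 left 5 genes called lower. Leaving out a library, where the lone one is assumed to vary like the other pair, gave 503 to 1043 higher, 433 to 914 lower and 18 to 43 called lower; the lowest counts by limma came without IFNγ library 1, and mock library 1 left out gave 43. The difference between times then gave 239 to 467 higher and 370 to 680 lower. Within 200 bases before the start, 5.51% of the tested genes with a window held a GAS and 2.24% an ISRE core. Equal totals in place of the T0 scale gave 945 higher and 1081 lower. Of the called genes, 17 higher and 1 lower passed limma in all 12 alternatives. No paired analysis was possible because the recovered libraries carry no number in the labels. Of the 22 called lower genes, 17 did not reach a level of 100 in either group.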
